A study of Homo sapiens with 12 samples.

Results

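TLE1, TLE2, TLE3, and TLE4 encode the full-length Groucho corepressors of human cells. They were taken as the rows of the count table that carry these symbols, which gave 4 of 60649 genes, and all 4 were among the 21114 genes that passed the filter on low counts. The family was chosen by the counts of TLE4 in SK-UT-1B, which were above 0 after DMSO and 0 after the drug combination. The values of the family in that comparison, and those of TLE4 between the lines, are therefore given as a description with no test.

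RNA was sequenced from 12 libraries of the established uterine leiomyosarcoma (uLMS) lines SK-LMS-1, which the study describes as a metastasis, and SK-UT-1B, described as a primary tumor, both labelled wild type. SK-LMS-1 received 72 h of DMSO (libraries 2-1 and 2-3, here DMSO set 2, and libraries 4-1 and 4-2, DMSO set 4), MK-0752 alone (libraries 2-2 and 2-3), or MK-0752 with gemcitabine and docetaxel, here the combination (libraries 4-1 and 4-2). For SK-UT-1B, a 72 h exposure to DMSO gave libraries 4-1 and 4-2, and the combination gave libraries 3-1 and 3-3. MK-0752 inhibits gamma secretase, the protease that frees the active part of Notch receptors, gemcitabine is a nucleoside analog, and docetaxel stabilizes microtubules. Drug concentrations were set separately for each line and regimen, and that of MK-0752 was lower in the combination than the one set for it alone, so the regimens differ in the dose of MK-0752 as well as in the added drugs. The 8 SK-LMS-1 columns of the count table carry treatment and library numbers but no line, and were matched to SK-LMS-1 by these against the sample titles, while the 4 SK-UT-1B columns carry their line, so comparisons of the lines rest on this match. Each line stands for a single tumor, and the labels do not say whether the 2 libraries of a group came from separate cultures, so the p values measure only the spread between these libraries. In SK-UT-1B the first number of the library names differs between DMSO (4) and the combination (3), so the treatment and whatever this number marks cannot be told apart there.

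Groucho proteins do not bind DNA themselves. They are recruited by DNA-binding partners such as the HES and HEY proteins at the end of the Notch pathway, TCF and LEF proteins when beta-catenin is absent, RUNX factors, and homeodomain or forkhead factors with a short binding motif, and they repress the bound genes, in part with histone deacetylases. TLE5 is a short family member without the C-terminal WD40 repeats, which bind many of the partners.

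Total counts ran from 25250057 to 40709885 per library. Summed over 10 smooth muscle markers, expression was 543 to 626 CPM (counts scaled to a fixed library size, with TMM normalization) in the 8 SK-LMS-1 libraries, with DES at 0, and 85.0 to 124 CPM in the 4 SK-UT-1B libraries, with MYOCD at 0. The sums lean on CALD1, with group means of 330 to 371 CPM in SK-LMS-1 and 44.7 to 45.7 CPM in SK-UT-1B. MYH11 had at most 5 counts in SK-LMS-1. The 5 epithelial markers summed to 163 to 264 CPM in SK-LMS-1, with CDH1 at 0 and EPCAM at no more than 37 counts, and to 0.292 to 1.14 CPM in SK-UT-1B, with EPCAM and KRT8 at 0. The 3 endothelial markers reached at most 9.40 CPM, and the 3 leukocyte markers at most 2.47 CPM in any library. The part of these markers in the TLE values was not tested. In bulk RNA, fewer cells that express a gene and less RNA per cell cannot be told apart.

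On hg38, TLE1 (ENSG00000196781.16) lies on the minus strand at chr9:81583683-81689547, and TLE4 (ENSG00000106829.20) on the plus strand of the same chromosome at chr9:79571773-79726882. TLE2 (ENSG00000065717.15) lies on the minus strand at chr19:2997639-3047635, 5275 bases from TLE5, and TLE3 (ENSG00000140332.17) on the minus strand at chr15:70047790-70098176. The identifiers are those of the count table, and coordinates are those of the same symbol and identifier in GENCODE v44, where the identifier version is later for TLE2, TLE3, and TLE4. The canonical transcript of each has 20 exons in GENCODE v44. No gene on the opposite strand overlaps any of the 4, and the only gene that overlaps one on the same strand, MIR629 within TLE3, had 0 counts in every library. Reads of near-identical paralogs can be split or lost in counting. Of all windows of 75 bases, the read length, in the annotated transcripts, 73 of 5537 in TLE1 (1.32%) and 12 of 9290 in TLE4 (0.129%) also occur in another TLE gene. No window of TLE2 or TLE3 does. TLE4 has fewer shared windows than TLE1, so some of the TLE1 windows occur in a TLE gene outside the 4 members. The longest run that the coding sequences of any pair share is 86 bases, between TLE1 (from base 1735 of 2310) and TLE4 (from base 1744 of 2319), and is shown because it is the stretch in which a read cannot tell the 2 genes apart:
TLE1 and TLE4: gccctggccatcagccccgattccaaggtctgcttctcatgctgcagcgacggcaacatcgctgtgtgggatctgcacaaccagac
The other 5 pairs share at most 31 bases in a row.

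The start regions of the 3 genes whose levels separated the lines most are shown, from 250 bases before to 50 after the annotated start (RefSeq, GRCh38.p14), 5′ to 3′ on the strand of the gene, with a match to a searched motif in capitals. TLE1 is at chr9:81689498-81689797 (minus), TLE4 at chr9:79571715-79572014 (plus), and TLE2 at chr19:3029231-3029530 (minus):
TLE1: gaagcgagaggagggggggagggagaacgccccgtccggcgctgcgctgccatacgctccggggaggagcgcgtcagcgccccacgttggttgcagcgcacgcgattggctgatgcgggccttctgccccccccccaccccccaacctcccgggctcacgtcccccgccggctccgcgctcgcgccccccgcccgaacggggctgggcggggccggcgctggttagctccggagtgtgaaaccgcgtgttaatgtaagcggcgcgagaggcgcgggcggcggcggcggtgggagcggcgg
TLE4: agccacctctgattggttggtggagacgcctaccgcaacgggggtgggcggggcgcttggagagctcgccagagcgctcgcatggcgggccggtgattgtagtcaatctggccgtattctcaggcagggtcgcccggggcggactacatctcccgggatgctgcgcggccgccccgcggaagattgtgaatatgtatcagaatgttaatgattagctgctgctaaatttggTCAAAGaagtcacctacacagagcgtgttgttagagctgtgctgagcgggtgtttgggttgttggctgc
TLE2: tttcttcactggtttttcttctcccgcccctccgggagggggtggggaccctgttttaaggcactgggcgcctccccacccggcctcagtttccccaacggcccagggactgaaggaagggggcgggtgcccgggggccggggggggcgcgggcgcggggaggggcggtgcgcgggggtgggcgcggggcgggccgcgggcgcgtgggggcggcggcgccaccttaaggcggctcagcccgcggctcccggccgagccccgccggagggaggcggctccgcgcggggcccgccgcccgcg
Letters for TCF/LEF (CTTTGA), RBPJ (TGGGAA), and RUNX (TGTGGT) were searched on both strands. They occur in 12.9%, 24%, and 13.1% of 35116 RefSeq start regions of 300 bases. The TLE4 region holds 1 TCF/LEF match, in reverse orientation from base 232, and neither the TLE1 nor the TLE2 region holds any of the 3. A second annotated start of TLE4 also holds 1 TCF/LEF match, and 1 of 3 annotated starts of TLE3 holds 2 RUNX matches. A match is a description of the letters and not of binding.

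To determine which Groucho genes each line expressed, levels after DMSO were compared between the lines. TLE1 was higher in SK-LMS-1 and TLE2 was higher in SK-UT-1B, TLE3 was expressed in both, and TLE4 was high in SK-LMS-1 and low in SK-UT-1B. TLE1 had 57.1, 53.2, 53.8, and 52.4 CPM in the SK-LMS-1 libraries 2-1, 2-3, 4-1, and 4-2, and 4.78 and 6.13 CPM in the SK-UT-1B libraries. All 4 SK-LMS-1 libraries were above both SK-UT-1B libraries, and TLE1 was 9.90-fold higher (log2FC 3.31, SE 0.24, edgeR adjusted p = 5.72e-10). The share of all genes without overlap was not counted for any comparison, so overlap of libraries is given as a description only. TLE2 had 3.35, 2.14, 2.43, and 0.933 CPM in SK-LMS-1, from 36 to 117 counts, and 31.8 and 37.3 CPM in SK-UT-1B, from 919 and 1408 counts. The groups did not overlap, and TLE2 was 16.2-fold lower in SK-LMS-1 (log2FC -4.01, SE 0.48, edgeR adjusted p = 1.90e-06).

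TLE3 had 45.9, 75.3, 69.7, and 64.9 CPM in SK-LMS-1 and 120 and 108 CPM in SK-UT-1B. These groups did not overlap either, but the difference stayed under the criteria for a call, which were a log2FC of 1 or more in either direction with an adjusted p under 0.05 (log2FC -0.84, SE 0.19, edgeR adjusted p = 0.00108). Without SK-LMS-1 library 2-3 the log2FC of TLE3 was -1.07 and the gene passed (edgeR adjusted p = 2.47e-06). TLE4 had 56.7, 52.8, 48.7, and 52.0 CPM in SK-LMS-1 and 3.22 and 1.46 CPM in SK-UT-1B, from 93 and 55 counts, a ratio of 22.7 (log2FC 4.50, which was 5.12 without SK-UT-1B library 4-1 and 4.03 without 4-2). Of all genes tested, 31.1% passed the criteria between the lines after DMSO, 17% higher and 14.1% lower in SK-LMS-1, so differences of this kind were common.

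**Figure D1:**
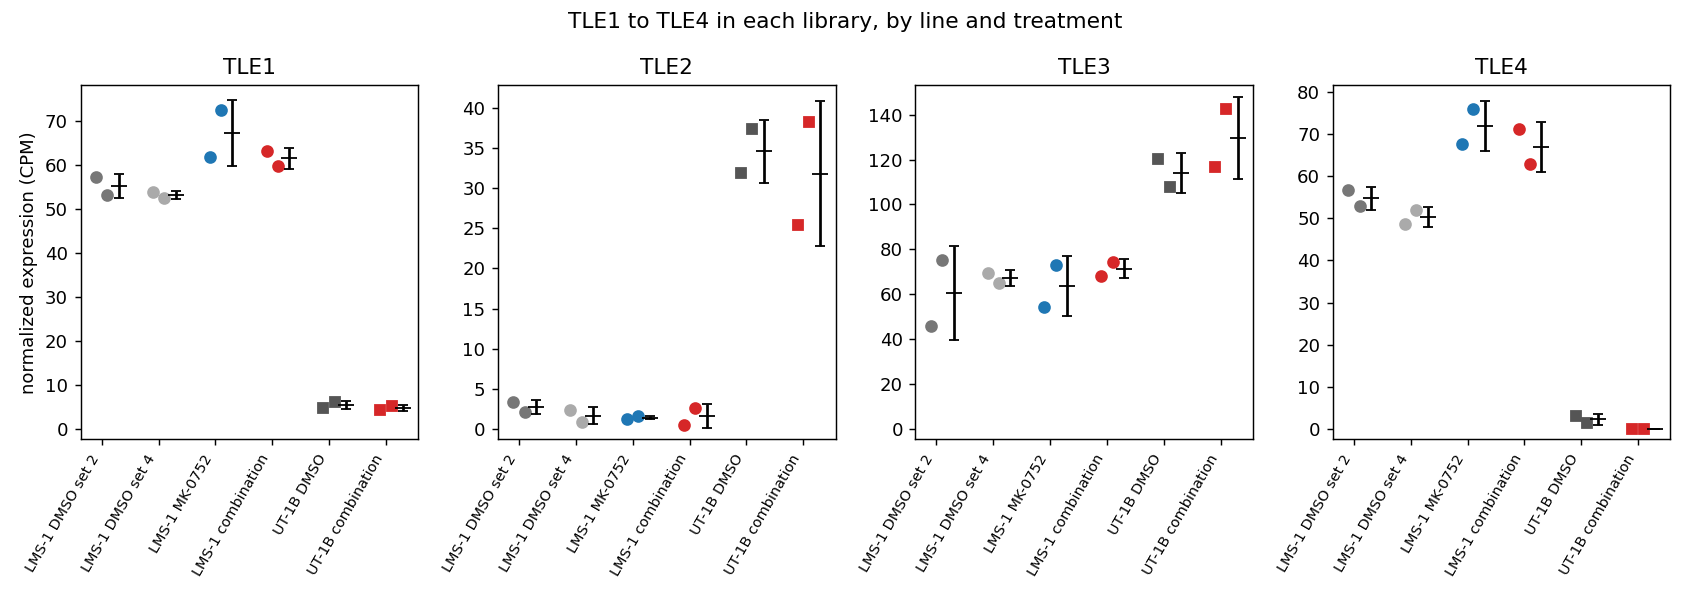
Expression of TLE1 to TLE4 in CPM (vertical axes, 1 panel per gene, each with its own scale) in each of the 12 libraries, by group; circles are SK-LMS-1, squares SK-UT-1B, and bars the group mean ± SD (n = 2). TLE1 and TLE4 lie above 48 CPM in every SK-LMS-1 library and below 7 CPM in every SK-UT-1B library, while TLE2 shows the reverse order.

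After the combination the order of the lines was the same for TLE1, TLE2, and TLE3. In these libraries the first number was 4 in SK-LMS-1 and 3 in SK-UT-1B, so the line and this number cannot be told apart. TLE1 had 63.1 and 59.8 CPM in SK-LMS-1 and 4.37 and 5.22 CPM in SK-UT-1B, 12.8-fold higher (log2FC 3.68, SE 0.25, edgeR adjusted p = 4.40e-10). TLE2 had 0.571 and 2.67 CPM in SK-LMS-1, from 19 and 65 counts, and 25.4 and 38.2 CPM in SK-UT-1B, 19.9-fold lower (log2FC -4.32, SE 0.64, edgeR adjusted p = 3.34e-05). The log2FC was -3.59 without SK-LMS-1 library 4-1 and -5.80 without 4-2. The TLE3 values were 68.3 and 74.4 CPM in SK-LMS-1 and 117 and 142 CPM in SK-UT-1B, which again did not reach a log2FC of 1 (log2FC -0.86, SE 0.22, edgeR adjusted p = 0.00484). Without SK-UT-1B library 3-1 it did (log2FC -1.02, edgeR adjusted p = 3.55e-05). TLE4 had 71.1 and 62.8 CPM in SK-LMS-1 and 0 counts in both SK-UT-1B libraries. Taking 3 counts as a floor in each library at 0, SK-LMS-1 had at least 711-fold more TLE4, or 629-fold without SK-UT-1B library 3-1. This floor covers counting error and not the spread between libraries. Of all genes, 25.4% passed the criteria between the lines after the combination, 15.6% higher and 9.88% lower in SK-LMS-1.

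Levels of different genes can be compared per length, as CPM per kb of exon. On this scale TLE1 made up 44.0% to 49.0% of the TLE1 to TLE4 sum in the 8 SK-LMS-1 libraries (median 46.1%), followed by TLE4 with 26.5% to 33.3% (median 30.3%), TLE3 with 16.4% to 26.0% (median 21.9%), and TLE2 with 0.527% to 3.65% (median 1.79%). The ranges of neighbours in this order did not overlap. They did for TLE1 and TLE4 when the length of the longest annotated transcript was used, with TLE1 at 37.7% to 42.5% and TLE4 at 30.4% to 38.2%. In the 4 SK-UT-1B libraries the order was TLE3 with 45.2% to 57.0% (median 52.0%), TLE2 with 37.9% to 47.7% (median 42.2%), TLE1 with 4.62% to 6.17% (median 5.02%), and TLE4 with 0% to 2.10%. TLE3 and TLE2 did not differ beyond their spread after DMSO, at 48.4% ± 4.48 and 44.6% ± 4.41 (SD, n = 2). With the length of the longest transcript they did not overlap, at 50.9% ± 4.38 for TLE3 (lowest 47.8%) and 42.8% ± 4.51 for TLE2 (highest 46.0%).

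**Figure D2:**
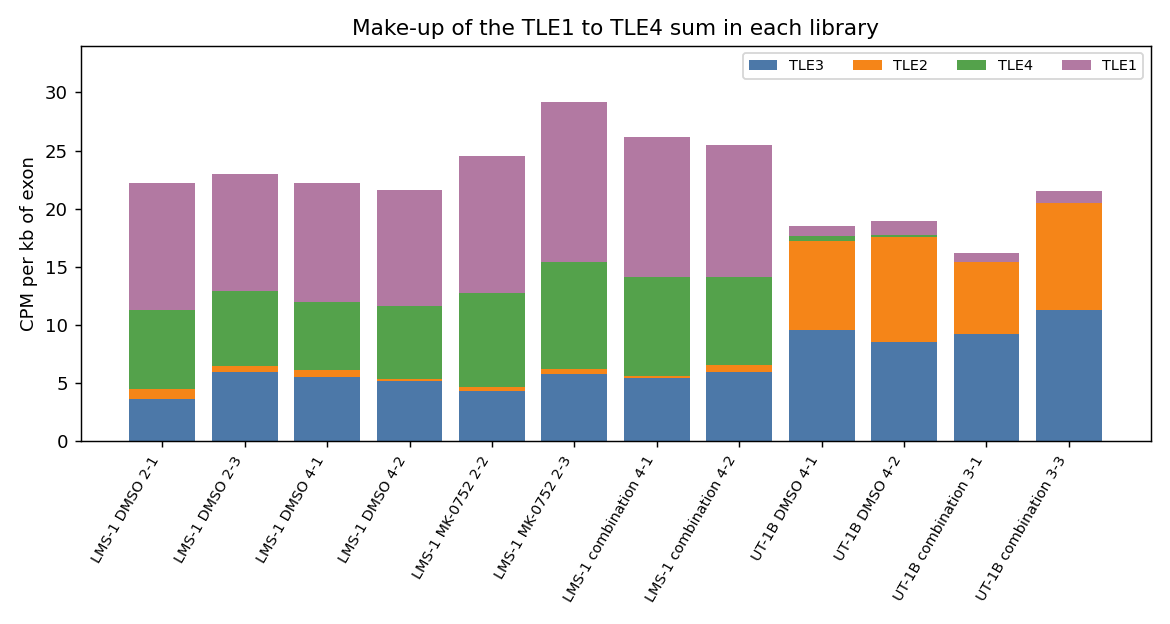
Sum of TLE1 to TLE4 in CPM per kb of exon (vertical axis) in each library, stacked by gene. TLE1 and TLE4 form most of each SK-LMS-1 bar, and TLE3 and TLE2 most of each SK-UT-1B bar.

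The 4 genes together reached 22.6 ± 0.578 and 21.9 ± 0.422 CPM per kb in SK-LMS-1 DMSO sets 2 and 4, 26.8 ± 3.26 after MK-0752, and 25.8 ± 0.462 after the combination (SD, n = 2). In SK-UT-1B the sum was 18.7 ± 0.267 after DMSO and 18.9 ± 3.74 after the combination. The sums differed far less between the lines than TLE1, TLE2, or TLE4 did, and their difference was not tested.

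To determine whether gamma secretase inhibition moved the family in SK-LMS-1, MK-0752 was compared with DMSO set 2, which shares its first library number. None of the 4 genes passed the criteria, against 0.251% of all genes (0.0568% higher, 0.194% lower). TLE4 had 67.6 and 76.0 CPM after MK-0752 and 56.7 and 52.8 CPM in DMSO set 2, so both treated libraries were above both controls (log2FC 0.39, SE 0.27, edgeR adjusted p = 0.806). TLE1 had 61.8 and 72.4 CPM against 57.1 and 53.2 CPM, also without overlap (log2FC 0.28, SE 0.22, edgeR adjusted p = 0.815). Here and after the combination, separation of 2 from 2 libraries is not read as a shift, since its share over all genes was not counted. TLE2 had 1.29 and 1.60 CPM against 3.35 and 2.14 CPM, lower in both treated libraries (log2FC -0.93, SE 0.58, edgeR adjusted p = 0.806). Its log2FC was -0.197 against the other DMSO set and ran from -1.03 to -0.197 over the alternatives other than leaving out single libraries. With single libraries left out it ran from -1.23 to -0.56. TLE3 overlapped, with 54.2 and 73.3 CPM against 45.9 and 75.3 CPM (log2FC 0.07, SE 0.22, edgeR adjusted p = 1).

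After the combination, compared with DMSO set 4, none of the 4 genes passed, against 0.0237% of all genes (0.0142% higher, 0.00947% lower). TLE4 had 71.1 and 62.8 CPM against 48.7 and 52.0 CPM in the controls, without overlap (log2FC 0.41, SE 0.27, edgeR adjusted p = 0.907). TLE1 had 63.1 and 59.8 CPM against 53.8 and 52.4 CPM, also without overlap (log2FC 0.21, SE 0.22, edgeR adjusted p = 1). TLE3 and TLE2 overlapped with their controls, with a log2FC of 0.09 (SE 0.22) and -0.06 (SE 0.60). The TLE2 value rested on libraries of 19 and 65 counts and ran from -1.51 to 0.77 when single libraries were left out. At an unadjusted p under 0.05, 1354 of the 21114 genes passed after MK-0752 and 914 after the combination, and none of the 4 members was among them.

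The 2 DMSO sets of SK-LMS-1 give the size of differences between libraries of the same line that are both labelled DMSO. For its flow cytometry the study describes DMSO controls matched in volume to each treatment, so the volume of DMSO may differ between the sets. From set 2 to set 4, log2FC values were -0.06 for TLE1 (SE 0.22), -0.73 for TLE2 (SE 0.59; -1.56 without library 4-1 of set 4), 0.15 for TLE3 (SE 0.22), and -0.12 for TLE4 (SE 0.27). TLE4 did not overlap between these control sets. By edgeR 0% of all genes passed the criteria between the sets, while the unadjusted p was under 0.05 for 1197 genes, and DESeq2 called none of the 4 members either. The response to MK-0752 minus the response to the combination, each against its own DMSO set, was a log2FC of 0.07 for TLE1 (SE 0.32), -0.87 for TLE2 (SE 0.84), -0.01 for TLE3 (SE 0.31), and -0.02 for TLE4 (SE 0.39), and no member passed, against 0.0379% of all genes (0.00474% higher, 0.0332% lower). These intervals do not exclude differences of the size of the effects themselves.

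**Figure D3:**
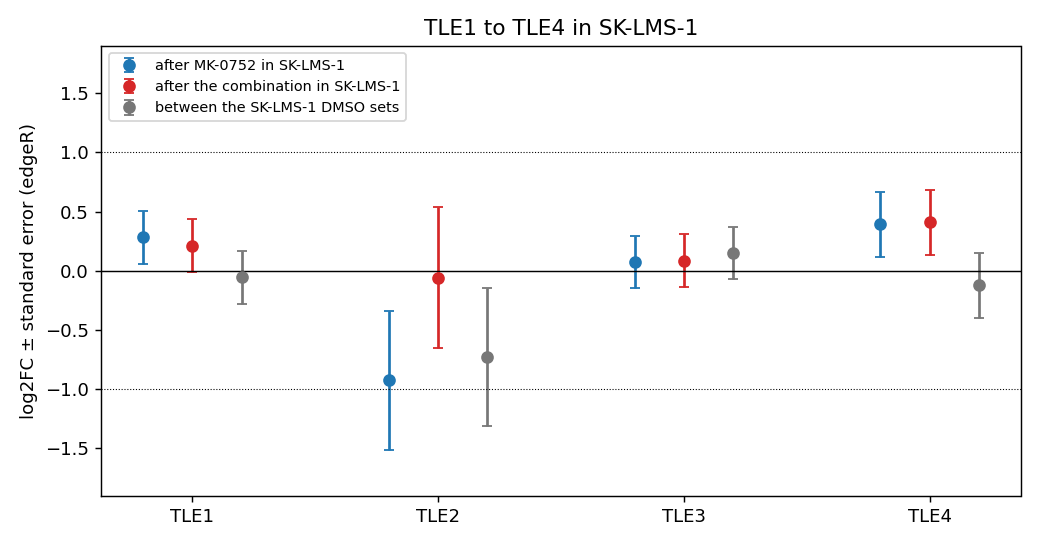
The log2FC ± SE of each member in SK-LMS-1 (vertical axis) after MK-0752, after the combination, and between the DMSO sets, by edgeR; dotted lines mark a log2FC of 1 and -1. No value reaches them, and TLE2 has the widest error bars, with an SE of 0.58 to 0.60.

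In SK-UT-1B, the comparison that chose the family, TLE4 had 93 and 55 counts after DMSO and 0 and 0 counts after the combination. Against 3 counts in each library, TLE4 was at least 24.8-fold lower, or 15.5-fold without DMSO library 4-1. TLE1 had 4.78 and 6.13 CPM after DMSO and 4.37 and 5.22 CPM after the combination (log2FC -0.19, SE 0.24). TLE2 had 31.8 and 37.3 against 25.4 and 38.2 CPM (log2FC -0.12, SE 0.55), and TLE3 120 and 108 against 117 and 142 CPM (log2FC 0.18, SE 0.22). The libraries of TLE1, TLE2, and TLE3 overlapped between the treatments. By the same criteria 0.559% of all genes passed in this comparison, 0.393% higher and 0.166% lower.

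To describe how other genes of this level behaved, genes at 0 in both libraries of a second group were counted, with no test, since TLE4 was chosen for this loss and is among them. Of 364 genes with 50 to 100 counts in both SK-UT-1B DMSO libraries, a range chosen after the values were seen, 2 had 0 counts in both combination libraries (0.549%), TLE4 and CARD9, and 16 had 0 in only 1 of them. In the reverse direction it was 1 of 319 genes (0.313%). Between the DMSO sets of SK-LMS-1, 4 of 316 genes in set 2 were at 0 in both libraries of set 4 (1.27%), and 4 of 268 the other way (1.49%). From set 2 to MK-0752 it was 2 of 316 genes (0.633%), and from set 4 to the combination 1 of 268 (0.373%).

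**Figure D4:**
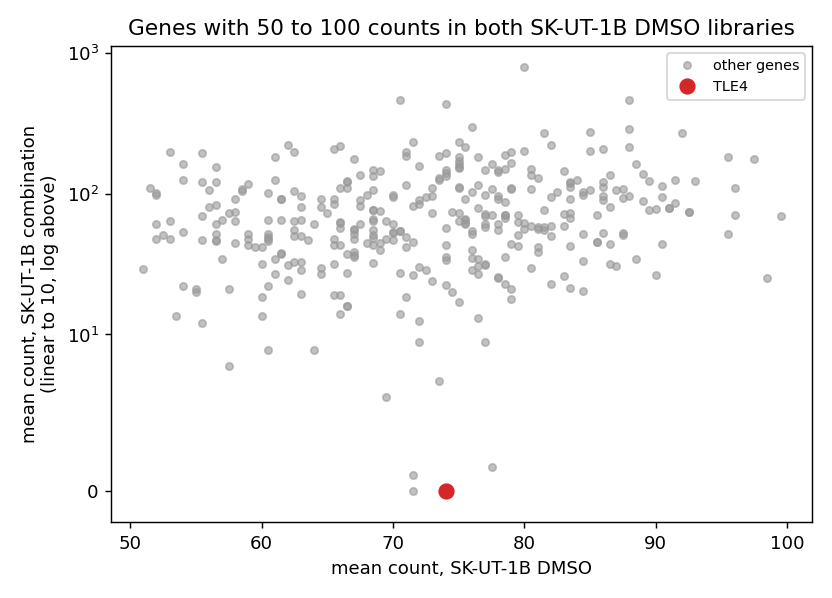
Mean count after the combination (vertical axis, linear to 10 and log above) against mean count after DMSO (horizontal axis) for the 364 genes with 50 to 100 counts in both SK-UT-1B DMSO libraries; each point is a gene. TLE4 and CARD9 lie at 0 after the combination.

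Genes for proteins that recruit Groucho were compared between the lines by list. These lists, like the members, were chosen with earlier results of these data known, and counts below are read against the 31.1% of all genes that passed between the lines after DMSO. Of the RUNX list, which holds 3 RUNX genes and their partner CBFB, 2 were higher and 1 was lower in SK-LMS-1, with a median log2FC of 2.65 against 0 over all genes. RUNX1, a regulator of blood formation, was 71.7-fold higher (155.9 against 2.12 CPM, log2FC 6.16, SE 0.40, edgeR adjusted p = 7.39e-08; 5.53 without SK-UT-1B library 4-1 and 7.33 without 4-2), and RUNX2, a regulator of bone formation, 118-fold higher (129.8 against 1.13 CPM, log2FC 6.88, edgeR adjusted p = 4.09e-13; 7.56 without 4-1 and 6.35 without 4-2). The RUNX1 level in SK-UT-1B rested on 28 and 123 counts. RUNX3 had 33.1 CPM in SK-UT-1B and 0 counts in each SK-LMS-1 library, at least 336-fold lower. CBFB, which binds all RUNX proteins, did not pass (log2FC -0.87).

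Of the 4 TCF and LEF factors, 3 were lower in SK-LMS-1 (median log2FC -3.21). LEF1 had 8.60 CPM against 268.7 CPM, 32.9-fold lower (log2FC -5.04, SE 0.18, edgeR adjusted p = 2.12e-14), TCF7L1 had a log2FC of -4.48 (SE 0.55; -5.13 without SK-LMS-1 library 4-1), and TCF7 of -1.95 (SE 0.24). TCF7L2 did not pass (99.5 against 60.5 CPM, log2FC 0.72, SE 0.15, edgeR adjusted p = 7.13e-04). Of 12 target genes of Wnt signaling, 8 were lower and 1 was higher in SK-LMS-1 (median log2FC -3.52). LEF1 and TCF7 belong to this list too and are among the lower genes of both lists, so the counts are not separate. AXIN2, a feedback inhibitor of the pathway, had 3.47 CPM against 121.5 CPM (39.8-fold lower, edgeR adjusted p = 1.48e-13). Its mean in SK-LMS-1 was 1.84 CPM in DMSO set 2 and 5.11 CPM in DMSO set 4, so the fold depends on the set used. NOTUM and APCDD1, both secreted or membrane inhibitors of Wnt, had 0 counts in all SK-LMS-1 DMSO libraries, which put NOTUM at least 99.1-fold lower (63.0-fold without SK-UT-1B library 4-1) and APCDD1 at least 687-fold lower. DKK1, another secreted Wnt inhibitor, went the other way, with 426 CPM in SK-LMS-1 and 0 counts in SK-UT-1B, at least 4645-fold higher. CTNNB1, which encodes beta-catenin, had 252.4 and 256.8 CPM (log2FC -0.03, SE 0.14), and of its 4 coactivators in the list only BCL9 passed, lower in SK-LMS-1 (log2FC -2.88, SE 0.16).

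**Figure D5:**
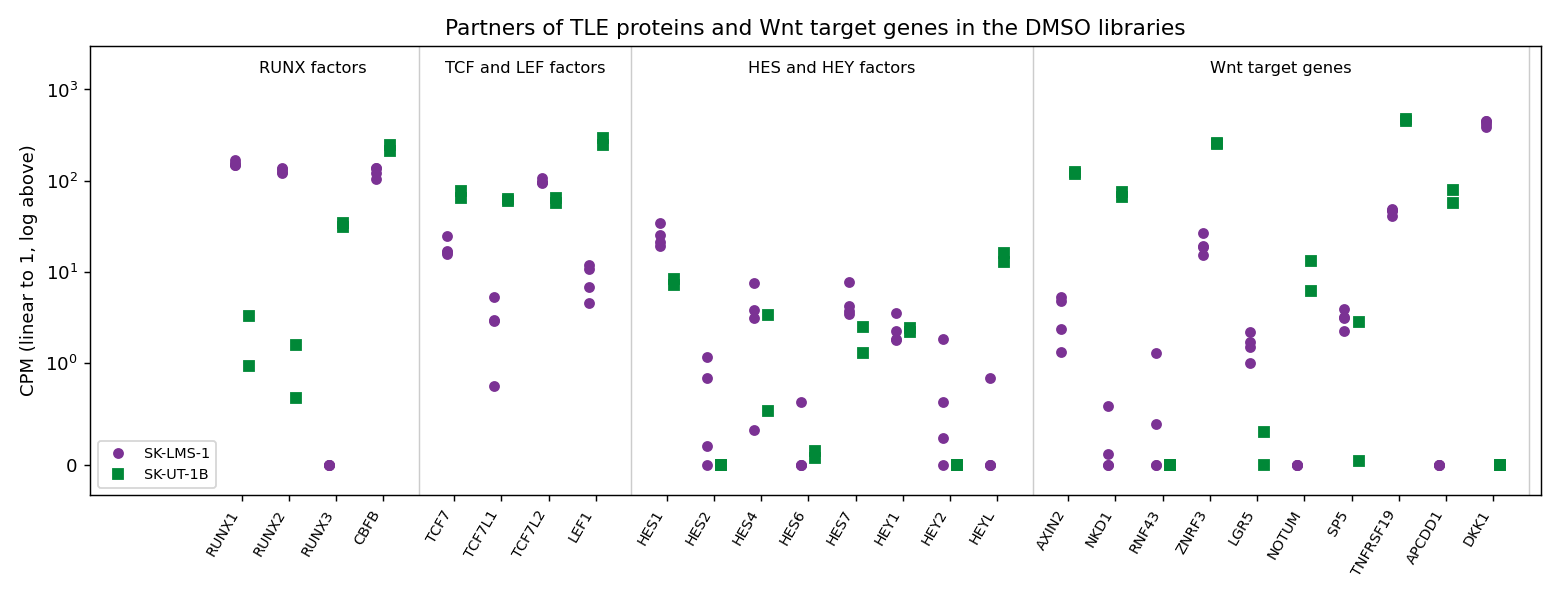
CPM in each DMSO library (vertical axis, linear to 1 and log above) for the tested RUNX, TCF and LEF, HES and HEY, and Wnt target genes; circles are SK-LMS-1 and squares SK-UT-1B, with LEF1 and TCF7 shown once. RUNX1, RUNX2, and DKK1 are higher in SK-LMS-1, and RUNX3, LEF1, TCF7L1, AXIN2, and APCDD1 in SK-UT-1B.

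Of the 11 HES and HEY factors, 8 were tested, and HES1 was higher (25.2 against 7.80 CPM, log2FC 1.69, SE 0.44, edgeR adjusted p = 0.00417) and HEYL lower in SK-LMS-1, a share near that of all genes. HEYL had 21 counts in SK-LMS-1 library 4-1 and 0 in the other DMSO libraries of the line, and 473 and 488 counts in SK-UT-1B (0.213 against 14.7 CPM). Its fitted log2FC of -8.52 depends on the prior count and is no bound. It ran from -9.73 to -5.15 over the alternatives other than leaving out single libraries, with adjusted p up to 0.0337 (edgeR or DESeq2). It was -11.9 without library 4-1. The median log2FC of the 8 was 0.99. Of 11 Notch target genes, 10 were tested, 2 were higher and 5 lower (median log2FC -0.72). HES1 and HEYL are in this list too and count in both. The ligand gene JAG1 was higher (170.7 against 9.14 CPM, log2FC 4.23, SE 0.21, edgeR adjusted p = 1.77e-12). DTX1 was among the lower genes (0.0634 against 4.51 CPM). Of 13 homeodomain and forkhead partners, 11 were tested, 3 were higher and 7 lower (median log2FC -2.46). FOXA2, a forkhead factor of endoderm, had 126.4 CPM in SK-LMS-1 and 0 counts in SK-UT-1B, at least 1378-fold higher. EN2 and SIX3, homeodomain factors of the developing brain, had 7.37 and 6.89 CPM in SK-UT-1B and 0 counts in SK-LMS-1, so EN2 was at least 74.8-fold lower and SIX3 at least 69.9-fold lower (38.0-fold without SK-UT-1B library 4-1).

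Regulators that act on or with the Groucho proteins were also compared. Of 9 genes for deacetylases, kinases, and ubiquitin factors, 2 were higher in SK-LMS-1 and none was lower (median log2FC 0.003). HIPK2, a kinase that phosphorylates Groucho, had 1039 CPM against 98.2 CPM (log2FC 3.40, SE 0.13, edgeR adjusted p = 3.42e-14). XIAP, a ubiquitin ligase of TLE3, was just past the limit (log2FC 1.02, SE 0.14) and fell under it with DESeq2 or another filter. HDAC1 did not pass (127.8 against 193.2 CPM, log2FC -0.60, SE 0.15). Neither did TLE5, with 251, 295, 388, and 295 CPM in SK-LMS-1 against 179 and 174 CPM (log2FC 0.79, SE 0.20, edgeR adjusted p = 0.00346), which on the scale per length was higher than any of the 4 full-length genes in each library.

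After the combination the same lists gave 2 higher and 1 lower RUNX factor, 3 lower TCF and LEF factors, 1 higher and 8 lower Wnt targets, 1 lower HES or HEY factor, 1 higher and 4 lower Notch targets, 2 higher and 6 lower homeodomain and forkhead partners, 2 higher regulators, and 2 lower coactivators of beta-catenin, against 25.4% of all genes. Lists share genes here as well, with LEF1, TCF7, and HEYL each counted in more than 1 list. HES1 no longer passed, at 2.58 CPM in SK-LMS-1 and 2.39 CPM in SK-UT-1B (log2FC 0.12, SE 0.49, edgeR adjusted p = 0.904). RUNX1 was still higher in SK-LMS-1 (log2FC 6.38, SE 0.42) and LEF1 lower (log2FC -4.68, SE 0.24). TLE5 had a log2FC of 0.81 (SE 0.22), TCF7L2 of 0.64 (SE 0.17), and HDAC1 of -0.37 (SE 0.17), and none of these passed. With the replicate block TLE5 did (log2FC 1.07). PYGO1, a beta-catenin coactivator, passed only here among the 2 comparisons of the lines (log2FC -1.41, SE 0.25), and the difference between the comparisons was not tested.

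After MK-0752 in SK-LMS-1, 1 of the 8 HES and HEY factors and 1 of the 4 TCF and LEF factors passed, beside 0.251% of all genes, and after the combination 1 of the 8 HES and HEY factors, beside 0.0237%. No TCF or LEF factor passed after the combination. No gene of the RUNX, homeodomain and forkhead, regulator, or beta-catenin lists passed after either treatment. After MK-0752, HES1, the Notch effector by which the study chose treatments for sequencing, had 3.14 and 3.80 CPM against 21.5 and 25.5 CPM in DMSO set 2 (log2FC -2.76, SE 0.51, edgeR adjusted p = 0.0153), so its fall is not independent of the design. TCF7 had 4.96 and 6.03 CPM against 17.0 and 16.4 CPM (log2FC -1.60, SE 0.30, edgeR adjusted p = 0.0165), which did not pass in a fit of these 4 libraries alone (edgeR adjusted p = 0.0540). After the combination HES1 had 3.82 and 1.35 CPM against 19.1 and 34.8 CPM (log2FC -3.37, SE 0.52, edgeR adjusted p = 0.0227), a log2FC of -4.31 without combination library 4-1, and a call that was lost in 3 of 8 alternatives. TLE5, HDAC1, TCF7L2, and RUNX1 had log2FC values of 0.03, -0.20, 0.26, and -0.25 after MK-0752 and of -0.19, 0.02, 0.16, and -0.09 after the combination, and none passed. Among SK-UT-1B libraries after the combination, the only partner past the criteria was RUNX2, with 1.59 and 0.663 CPM after DMSO and 4.73 and 3.23 CPM after the combination (log2FC 1.86; 2.56 without DMSO library 4-1 and 1.33 without 4-2), beside 0.559% of all genes.

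The genes whose level followed each member most closely over the 12 libraries were found by Pearson r on log2(CPM + 1) among 11324 genes with a mean of at least 5 CPM. For TLE1 they were FAT4 (r = 0.999), DPYD (0.998), and GRIN2A (0.998). For TLE4 they were GALNT7, C1S, and THBS1 (each 0.994), for TLE2 ZNF469 (0.987), CCSAP (0.986), and RFWD3 (0.986), and for TLE3 TFEB (0.978), TAOK2 (0.975), and FBRSL1 (0.971). The libraries fall into 2 lines, so these values mostly describe the difference between the lines.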

How the data were processed

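RNA of 12 libraries was sequenced as single-end reads of 75 bases from ribosome-depleted, stranded libraries. The authors trimmed reads with Trim Galore 0.3.7, aligned them to hg38 with STAR 2.7.9a, used SortMeRNA to take out ribosomal RNA, and deposited unnormalized counts of reads for each gene. Which annotation and strand setting were used, and whether duplicates were removed, is not given in the sources used here. Total counts per library ranged from 25250057 to 40709885, and floors of 3 counts cover counting error only.

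Counts were tested with edgeR 4.0.16 in R 4.3.3 (TMM, filterByExpr, robust quasi-likelihood fit of 6 groups of 2, 6 residual degrees of freedom, Benjamini-Hochberg adjustment over 21114 genes). A call needed a log2FC of 1 or more in either direction with an adjusted p under 0.05. SE is the log2FC divided by the square root of F. CPM values are TMM-normalized, and CPM per kb used the union of GENCODE v44 exons. SK-LMS-1 treatments were compared with the DMSO set of the same first library number.

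The members and gene lists were chosen with earlier results of these data known. Named genes were the members, every called gene of each list (where over 4, the 2 highest and 2 lowest), and TLE5, HES1, HDAC1, TCF7L2, and RUNX1. AXIN2, CBFB, CTNNB1, and CARD9 were named after their values were seen, and some genes the rule takes are not reported here by name. The 3 most similar genes were named for each member. Alternatives were DESeq2 1.42.0, its size factors in edgeR, a filter of 1 count in total or of 50 counts on average, a fit of only the compared libraries, a single SK-LMS-1 DMSO group of 4, only DMSO set 4 between the lines, a replicate block, each library left out, the longest transcript as length, and, chosen after the data were seen, the other DMSO set as control. Ranges and counts over the alternatives do not include the fits with a library left out.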

Additional observations from a re-analysis of the deposited data

Results flagged for a closer look

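TLE4 levels in the combination libraries lay on opposite sides of the DMSO libraries in the lines. In SK-UT-1B both combination libraries (0 and 0 counts) were below both DMSO libraries (93 and 55 counts), and in SK-LMS-1 both (71.1 and 62.8 CPM) were above both libraries of DMSO set 4 (48.7 and 52.0 CPM). The fitted log2FC in SK-UT-1B minus that in SK-LMS-1 was -9.63, a value that depends on the prior count because of the libraries at 0 and is no bound. The difference was not tested, since the values in SK-UT-1B chose the family, and in SK-LMS-1 TLE4 did not pass the criteria (log2FC 0.41, edgeR adjusted p = 0.907) and did not overlap between the DMSO sets either. In SK-UT-1B the treatment and the first library number cannot be told apart.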

How the results depend on the processing

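The count of members past the criteria, over TLE1, TLE2, and TLE3 between the lines, where TLE4 was not tested, and over all 4 genes in the SK-LMS-1 comparisons, was the same under each alternative other than leaving out single libraries. Leaving out single libraries gave 2 to 3 calls between the lines after DMSO and 2 to 3 after the combination, and 0 in the SK-LMS-1 comparisons; a lone remaining library was assumed to vary like the other groups. The cause was not tested for any change below.

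Values near 0 changed sign. TLE3 after MK-0752 was -0.0052 with all 4 DMSO libraries and -0.0791 with the other set (-0.24 to 0.46 with libraries left out). TLE5 after MK-0752 was -0.14 and -0.29 with the same controls (-0.0781 to 0.14), and after the combination 0.14 with the other set (-0.35 to 0.0278). HDAC1 after the combination was -0.0112 with DESeq2, -0.0109 with its size factors, -0.0101 without a filter, -0.0137 in its own libraries, -0.0225 with a mean of at least 50 counts, -0.0603 with all 4 DMSO libraries, and -0.14 with the other set (-0.15 to 0.24). The difference between the treatment effects for TLE3 was 0.0265 with DESeq2, 0.0266 with its size factors, 0.0398 without a filter, 0.0590 with a mean of at least 50 counts, 0.0215 with the replicate block, and 0.0518 in its own libraries (-0.34 to 0.36). For TLE4 it was 0.0151 with DESeq2 or its size factors, 0.0312, 0.0493, 0.16, and 0.0431 with the same 4 further settings, and 0.10 with all 4 DMSO libraries (-0.13 to 0.0624). Ranges with libraries left out also crossed 0 for TLE2 (-1.51 to 0.77) and RUNX1 (-0.17 to 0.0118) after the combination, TLE3 between the DMSO sets (-0.16 to 0.53), HES1 between the lines after the combination (-0.84 to 0.66), and the difference of effects for TLE1 (-0.0438 to 0.18) and TLE2 (-1.70 to 0.58). In SK-UT-1B, where no test was made of the members, leaving out libraries gave -0.38 to 0.0032 for TLE1, -0.44 to 0.11 for TLE2, -0.51 to 0.29 for TLE5, and -0.94 to 0.82 for RUNX1, and TLE3 was -0.0701 with the replicate block.

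The replicate block changed no count of members called. Same-numbered libraries did not deviate together (r = -0.041 between SK-LMS-1 DMSO set 4 and the combination and -0.012 between DMSO set 4 and SK-UT-1B DMSO, over 11325 genes), so the numbers were not read as pairs. Between the lines after the combination, TLE5 passed with the block (log2FC 1.07, edgeR adjusted p = 7.36e-05) and without SK-UT-1B library 3-3 (1.28), and SIX3 did not pass with DESeq2 (adjusted p = 0.117). The call of HES1 after the combination in SK-LMS-1 was lost with a mean of at least 50 counts (edgeR adjusted p = 0.117), with its own libraries alone (0.478), and with the other DMSO set (0.108). Over the alternatives other than leaving out single libraries, XIAP between the lines lay between 0.99 and 1.05 after DMSO. After the combination it lay between 0.97 and 1.01, again on either side of the limit. Leaving out single libraries gave 0.88 to 1.13 after DMSO and 0.93 to 1.08 after the combination. Among the members in SK-LMS-1, TLE2 had the least depth, with 19 to 117 counts per library. TLE4 in SK-UT-1B had 0 to 93.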

Other observations

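TLE6, a divergent member expressed in oocytes, was at 0 in each SK-UT-1B library and varied in SK-LMS-1, where DMSO libraries had 3, 0, 140, and 13 counts, MK-0752 libraries 85 and 58, and combination libraries 24 and 44. Its spread between libraries of DMSO set 4 (140 and 13 counts) was wider, relative to its level, than that of TLE1, TLE3, or TLE4 in the same libraries. Between the lines after the combination TLE6 passed the criteria, with SK-LMS-1 higher by at least 13.4-fold, or 7.65-fold without SK-LMS-1 library 4-2 (edgeR adjusted p = 0.0333), with adjusted p of 0.00234 to 0.104 over the alternatives, the highest with the replicate block, and it did not pass without SK-LMS-1 library 4-2 (0.0536), SK-UT-1B library 3-1 (0.0885), or SK-UT-1B library 3-3 (0.0785). After DMSO it did not pass (edgeR adjusted p = 0.0589). TLE7 had 0 counts in every library, and TLE1P1, a pseudogene of TLE1, had 0 to 57 counts in SK-LMS-1 and 0 in SK-UT-1B.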
